A study of Mus musculus with 6 samples.

Results

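The transcripts described here encode the machinery of oxidative phosphorylation. Their members were chosen by symbol alone: genes of the deposited feature list that begin with mt-, Ndufa, Ndufb, Ndufc, Ndufs, Ndufv, Cox4 to Cox8, Uqcr, Atp5 or Sdh, other than names ending in -ps. The rule gave 110 of 32285 genes: the 13 protein genes of the mitochondrial genome (mt- genes), 85 nuclear genes for subunits of complexes I to V, and 12 nuclear assembly factors that share the prefixes (Ndufaf1 to Ndufaf8 and Sdhaf1 to Sdhaf4). Of the 110, 5 had fewer than 100 unique molecules in all nuclei together: Cox4i2, Cox7a1, Cox8b, Cox8c and Ndufa4l2.

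The data are single-nucleus RNA libraries from the frontal lobe of 6 mice, 1 library per mouse. All 6 mice carried Tg-SwDI, a transgene for human amyloid precursor protein with the Swedish, Dutch and Iowa mutations, which is expressed in neurons and is used as a model of cerebral amyloid angiopathy. Of these, 3 mice had intact Trem2 (SwDI/TWT, here WT1 to WT3) and 3 lacked Trem2, the lipid-sensing receptor of microglia (SwDI/TKO, here KO1 to KO3); mice without the transgene, ages and sexes were not analysed here. The replicate numbers follow accession order and pair no mice.

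Oxidative phosphorylation takes place in the inner mitochondrial membrane, where complexes I and II pass electrons from NADH and succinate to complex III and on to complex IV, and complex V uses the resulting proton gradient to make ATP. Complexes I, III, IV and V combine subunits encoded by mitochondrial DNA with many more encoded in the nucleus, whereas complex II is wholly nuclear. Mitochondrial transcripts are made and kept inside the organelle, so in a library of nuclei they come mainly from organelles or cytoplasm that stayed with the nuclei, while transcripts of the nuclear genes include unspliced RNA still in the nucleus. Neurons depend heavily on this pathway for ATP, and several subunits of complex IV exist as alternative isoforms that differ between tissues.

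The 6 libraries held 39752 barcodes, of which 39742 had at least 200 detected genes and 38624 remained after doublets were removed. KO1 was counted with another version of the counting software and stood apart in depth, with a median of 5102 unique molecules (UMIs) per nucleus against 1419 to 2400 in the other 5 libraries. No limit was set on the mitochondrial share of a nucleus, since that share is a result here; 5461 barcodes, from 374 in KO1 to 1945 in KO3, exceeded 5%. Libraries shared 8 to 18 barcode sequences per pair. Marker genes named 15 of 26 clusters, and 36.9% of nuclei stayed in unnamed clusters. The 8 classes tested were excitatory neurons (5925 nuclei), oligodendrocytes (5855), striatal projection neurons (5531), inhibitory neurons (2322), microglia (1634), astrocytes (1344), oligodendrocyte precursors (1124) and border macrophages (263), each name standing for nuclei like that cell type. Striatal projection neurons were present although the tissue is labelled frontal lobe. Different clusters held most nuclei of KO1 and of the other libraries in excitatory neurons (cluster 6 against cluster 2), oligodendrocytes (cluster 11 against cluster 1) and striatal projection neurons (cluster 18 against cluster 0). The top genes of cluster 6 included Tafa1 and Car10, as in cluster 2, but also Slc30a3 and Igfn1, as in unnamed cluster 5. Cluster 5 held 19 KO1 nuclei and 81 to 825 nuclei of each other library. The nuclei counted as excitatory may therefore differ in kind between KO1 and the other libraries. The part of this in the excitatory values and the interaction was not tested. In microglia, Trem2 measured 1592, 1437 and 885 UMIs per 1000000 UMIs (CPM) in WT1 to WT3 and 208, 671 and 425 in KO1 to KO3, lower in every SwDI/TKO library but above 0 in each; the labels do not say which part of the gene is deleted.

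The mt- genes lie so close together that some share bases, which bears on how a 3′ read can be assigned, so the shared ends are shown first (mm10, GENCODE M21; 5′ to 3′ on each gene's own strand, shared bases in capitals). mt-Atp8 and mt-Atp6, both subunits of complex V, overlap by 43 bases on the same strand. mt-Nd4l and mt-Nd4, both of complex I, overlap by 7 bases on the same strand. mt-Nd5 and mt-Nd6, also of complex I, overlap by 14 bases at their ends on opposite strands.
mt-Atp8 last 60 bases (chrM:7910-7969, plus strand): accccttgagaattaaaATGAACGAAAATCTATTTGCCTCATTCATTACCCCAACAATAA
mt-Atp6 first 60 bases (chrM:7927-7986, plus strand): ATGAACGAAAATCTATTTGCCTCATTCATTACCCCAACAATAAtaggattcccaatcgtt
mt-Nd4l last 60 bases (chrM:10114-10173, plus strand): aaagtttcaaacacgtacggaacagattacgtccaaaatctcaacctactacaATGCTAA
mt-Nd4 first 60 bases (chrM:10167-10226, plus strand): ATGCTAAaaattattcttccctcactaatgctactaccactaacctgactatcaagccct
mt-Nd5 last 60 bases (chrM:13506-13565, plus strand): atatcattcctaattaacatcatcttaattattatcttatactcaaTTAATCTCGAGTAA
mt-Nd6 last 60 bases (chrM:13552-13611, minus strand): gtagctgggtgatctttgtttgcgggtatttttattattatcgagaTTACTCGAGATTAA

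The end of mt-Atp8 is thus also the start of mt-Atp6, and the values of these genes, like those of mt-Nd4l with mt-Nd4 and of mt-Nd5 with mt-Nd6, are uncertain where reads fall on the shared bases; the sources used here do not say whether the counting used strand. A second source of uncertainty is a nuclear copy. In the last 400 bases of each transcript, the share of 50-base stretches found word for word in another annotated transcript was complete for mt-Co1 and mt-Co2, 99.7% for mt-Co3, 99.1% for mt-Atp6, 98.8% for mt-Nd4l and 98% for mt-Nd3. The copy with most matches was, for each of these 6 genes, an unprocessed pseudogene, and these copies (Gm10222, Gm28438, Gm28437, Gm10925, Gm28661 and Gm29216) lie side by side on the minus strand between bases 24612407 and 24616197 of chromosome 1 (mm10). Further pseudogenes elsewhere matched fewer stretches of mt-Co1, mt-Co2 and mt-Atp6, the most being Gm13341 with 100 of 351 for mt-Co2 and Gm13340 with 64 of 351 for mt-Co1. None of these copies is among the deposited features. mt-Nd2 shared 22.8% and mt-Nd5 5.98%, while mt-Nd1, mt-Nd4, mt-Nd6, mt-Atp8 and mt-Cytb shared none. Among the 97 nuclear members, 22 shared any such stretch and 3 shared more than 50%: Ndufs3 (64.7%), Atp5h (54.7%) and Cox7c (52.4%), whose values are uncertain to that extent.

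Within the mitochondrial UMIs of all nuclei, the 13 genes kept nearly the same proportions in each library. Shares are of UMIs, which count 3′ ends and are not divided by gene length. mt-Co3, a core subunit of complex IV, contributed 19.9% to 22% of mt- UMIs, mt-Atp6, the proton-channel subunit of complex V, 16.7% to 19.2%, and mt-Co2 and mt-Co1, the catalytic core of complex IV, 13.8% to 14.7% and 11.8% to 13.4%. mt-Cytb, the mitochondrial subunit of complex III, held 10.6% to 11.4%. Of the complex I genes, mt-Nd1, mt-Nd2 and mt-Nd4 each held several percent (6.21% to 6.72%, 6.03% to 6.7% and 5.64% to 6.73%), and the other 4 were scarcer: mt-Nd3 1.46% to 2.25%, mt-Nd5 1.02% to 1.27%, mt-Nd4l 0.395% to 0.765% and mt-Nd6, the only one on the other strand, 0.0867% to 0.171%.

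The proportions that moved most between libraries belonged to short genes. mt-Atp8 held 0.321, 0.276 and 0.216% in WT1 to WT3 and 0.164, 0.418 and 0.306% in KO1 to KO3 of mt- UMIs. KO1 had the lowest mt-Atp8 share, 0.532 of the mean of the other 5 libraries, and the same ratio was 0.742 for mt-Nd3 and 0.736 for mt-Nd4l. Over all nuclei, the groups overlapped in the share of each of the 13 genes. Within astrocytes they did not overlap for mt-Nd1, mt-Nd3, mt-Nd5 and mt-Nd6: mt-Nd1 held 5.31, 5.49 and 5.27% in WT1 to WT3 and 4.8, 4.51 and 4.37% in KO1 to KO3. Within border macrophages they did not overlap for mt-Atp8 and mt-Cytb. For the levels of all genes tested, a different measure, every SwDI/TKO library was below every SwDI/TWT library for 5.18% and above for 5.18% in astrocytes. In border macrophages these percentages were 6.31% and 7.21%. Parts of a whole are bound to one another, so these shares are given without a test and no result about single genes is drawn from them.

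**Figure D1:**
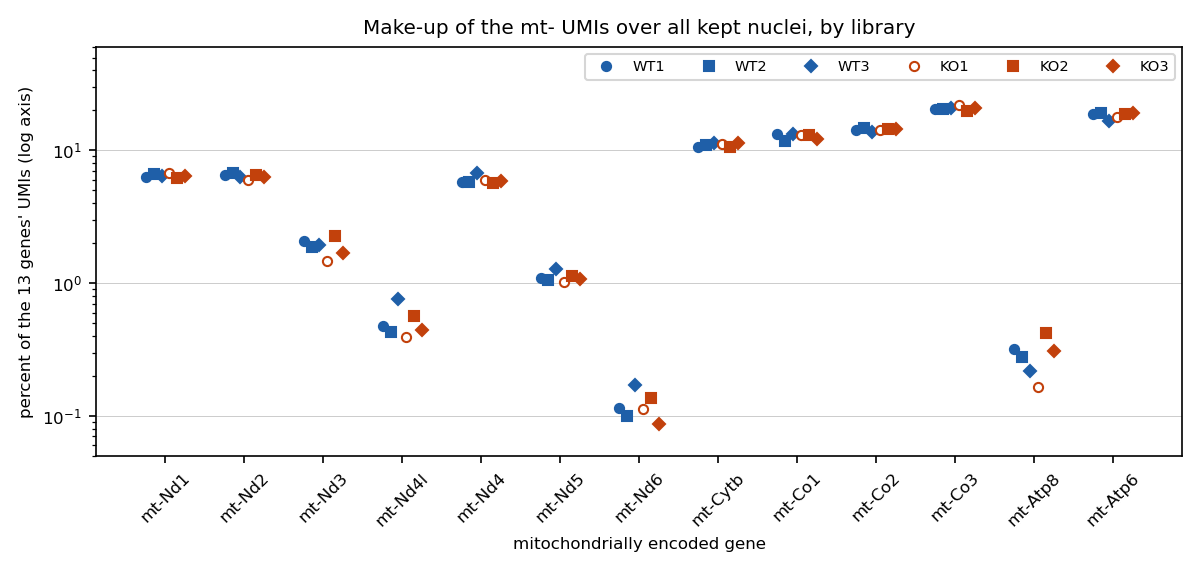
Share of mt- UMIs (percent, vertical axis, log scale) held by each of the 13 mitochondrial genes (horizontal axis) over all nuclei, 1 point per library for WT1 to WT3 and KO1 to KO3, with KO1 as an open circle. mt-Co3 leads and mt-Nd6 is lowest in all 6 libraries, and KO1 lies lowest for mt-Atp8.

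The share of all UMIs that came from mt- genes differed more between libraries than between genotypes. Over all nuclei it was 2.72, 2.7 and 1.04% in WT1 to WT3 and 0.873, 1.5 and 4.26% in KO1 to KO3, so that KO3 was highest and KO1 lowest, both in the same group. In microglia, the mt- share was 3.03, 2.6 and 2.32% in WT1 to WT3 and 1.09, 1.85 and 2.47% in KO1 to KO3. KO1 and KO2 were below all SwDI/TWT libraries and KO3 lay among them. In astrocytes it was 3.7, 3.44 and 2.35% in WT1 to WT3 and 0.858, 2.35 and 3.37% in KO1 to KO3, with KO1 far below the rest and the other libraries overlapping. In excitatory neurons it was 1.92, 2.05 and 0.495% in WT1 to WT3 and 0.591, 0.557 and 3.81% in KO1 to KO3, and in inhibitory neurons 3.21, 3.07 and 1.28% in WT1 to WT3 and 1.22, 1.86 and 4.85% in KO1 to KO3. In both neuronal classes KO3 was highest, and WT3 stood with KO1 and KO2 rather than with WT1 and WT2.

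Striatal projection neurons (1.59, 2.33 and 0.734% in WT1 to WT3 and 0.519, 1.42 and 3.76% in KO1 to KO3) and oligodendrocytes (3.99, 4.82 and 2.32% in WT1 to WT3 and 2.0, 2.86 and 4.86% in KO1 to KO3) likewise had KO3 highest and KO1 lowest. Oligodendrocyte precursors had 3.07, 3.85 and 2.98% in WT1 to WT3 and 1.09, 2.66 and 3.7% in KO1 to KO3 and border macrophages 6.07, 4.69 and 3.11% in WT1 to WT3 and 0.896, 4.55 and 4.27% in KO1 to KO3. KO1 had the lowest mt- share of the 6 libraries in 7 of the 8 classes, the exception being excitatory neurons, where WT3 was lowest. The highest share exceeded the lowest by 2.77-fold in microglia and by 7.71-fold in excitatory neurons. In the named fibroblast cluster (cluster 21), too small in some libraries to test, mt- genes held 9.84 ± 2.83% in SwDI/TWT and 9.42 ± 4.64% in SwDI/TKO (SD, n = 3 each). These means were above those of all 8 tested classes. An unnamed cluster that also matched fibroblast markers best (cluster 17, 416 nuclei) had a median mt- share per nucleus of 2.49%, against 6.03% in cluster 21.

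The nuclear subunits, counted as their summed CPM, ranked the libraries over all nuclei in the same order as the mt- share, from KO3 down to KO1, whereas in microglia and astrocytes KO3 led the nuclear subunits and WT1 the mt- share. In all nuclei they measured 7273, 5981 and 3555 CPM in WT1 to WT3 and 2654, 4587 and 8820 in KO1 to KO3, in microglia 8273, 7666 and 5034 in WT1 to WT3 and 4369, 5790 and 11340 in KO1 to KO3, in astrocytes 8335, 8831 and 4530 in WT1 to WT3 and 3843, 5533 and 9743 in KO1 to KO3 and in excitatory neurons 5128, 4972 and 2756 in WT1 to WT3 and 2125, 3217 and 7140 in KO1 to KO3. KO1 was lowest and KO3 highest in each of the 8 classes, 3.32-fold apart over all nuclei, and WT3 was lowest of the SwDI/TWT libraries in each. Ribosomal protein genes, a gene group of similarly short and abundant cytoplasmic messengers, also ran from KO1 at 3214 to KO3 at 18338 CPM over all nuclei. Malat1, a long RNA that stays in the nucleus, held 25.1, 24.6 and 29.2% in WT1 to WT3 and 9.04, 22.5 and 16.2% in KO1 to KO3 of UMIs, lower in every SwDI/TKO than in every SwDI/TWT library, and the same held in 6 of the 8 classes, not in excitatory neurons or border macrophages. The part of these library differences in the genotype values that follow was not tested.

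Dividing mt- UMIs by nuclear subunit UMIs of the same library and class removes the total from both. In microglia the ratio was 3.66, 3.4 and 4.6 in WT1 to WT3 and 2.5, 3.19 and 2.18 in KO1 to KO3, below every SwDI/TWT library in each SwDI/TKO library, with means of 3.89 ± 0.633 and 2.62 ± 0.516 (SD, n = 3 each). An exact permutation test of 3 against 3 cannot go below p = 0.1, so by that test no single ratio can pass a threshold of 0.05. Microglia were the only one of the 8 classes in which the groups did not overlap in this ratio. When nuclei with more than 5% mt- UMIs were left out, it was 2.32, 1.87 and 3.01 in WT1 to WT3 and 2.11, 1.97 and 1.3 in KO1 to KO3 and the groups overlapped, with means of 2.4 and 1.79. In astrocytes it was 4.44, 3.89 and 5.18 in WT1 to WT3 and 2.23, 4.25 and 3.46 in KO1 to KO3 and in excitatory neurons 3.74, 4.11 and 1.79 in WT1 to WT3 and 2.78, 1.73 and 5.34 in KO1 to KO3, with overlap in both.

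**Figure D2:**
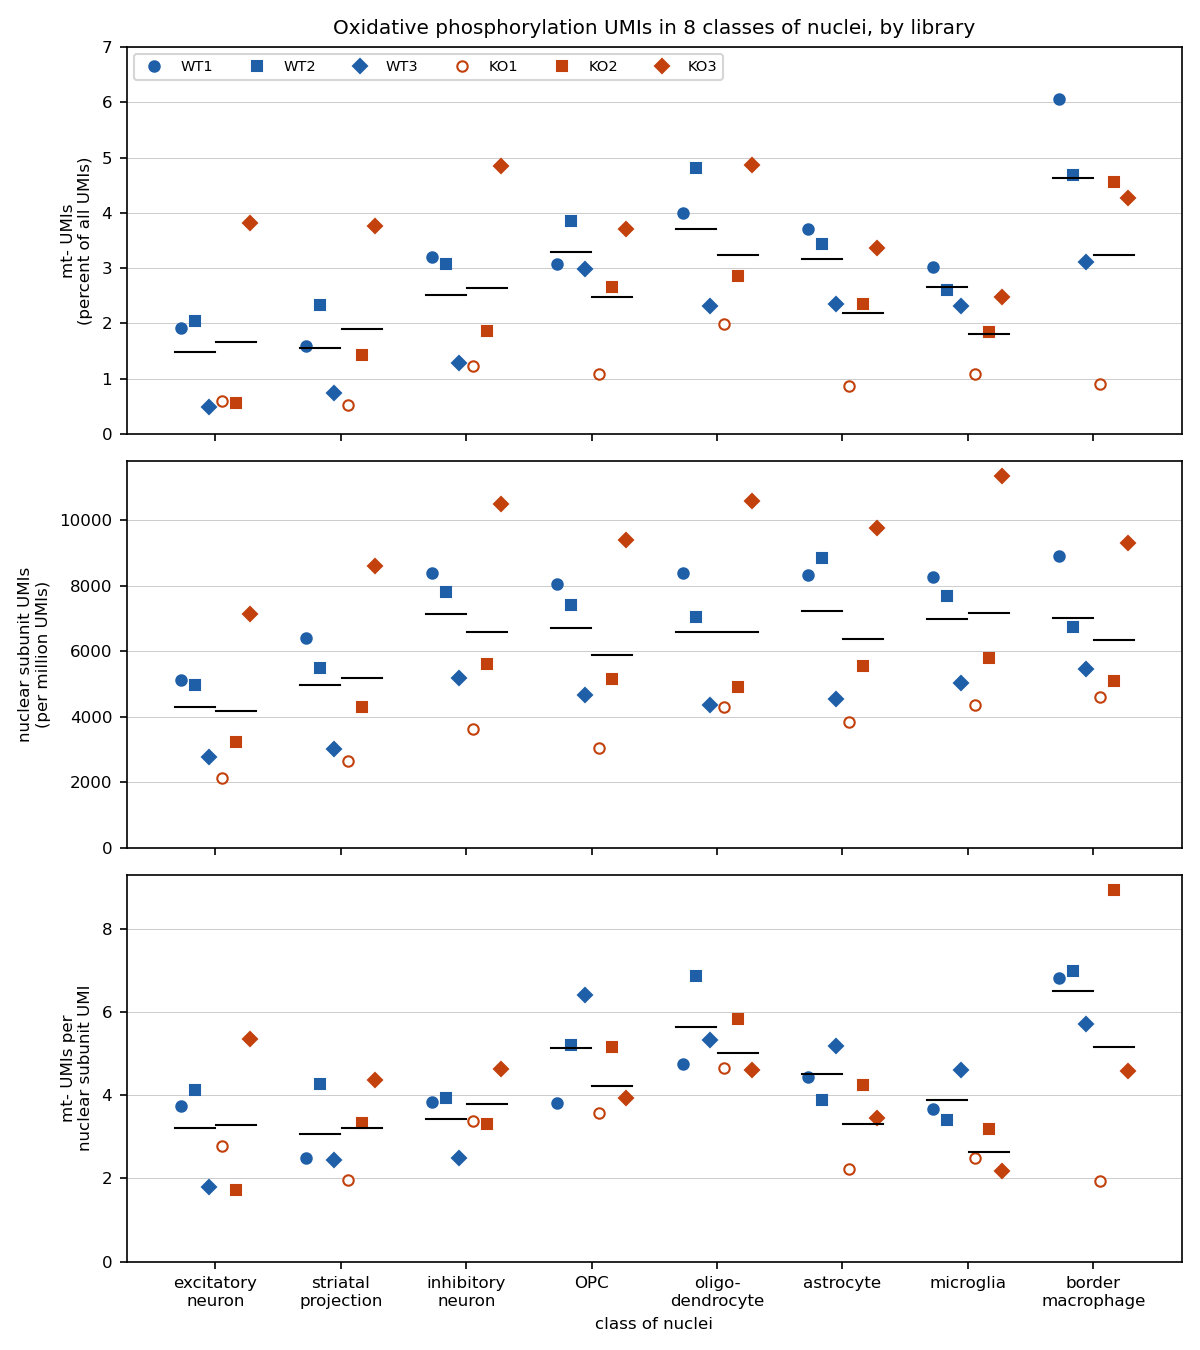
Percent of all UMIs from mt- genes (upper), summed nuclear subunit CPM (middle) and mt- UMIs per nuclear subunit UMI (lower) in each tested class (horizontal axis; OPC, oligodendrocyte precursor), 1 point per library, KO1 as an open circle, black bars for group means. KO1 is lowest in 7 of 8 classes in the upper panel and in all 8 in the middle one, where KO3 is highest; in the lower one the groups separate in microglia alone.

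Whether loss of Trem2 altered these transcripts was tested gene by gene on counts summed per library and class (edgeR quasi-likelihood test, Benjamini-Hochberg adjusted over all genes tested in the class, threshold 0.05). No member passed in any class, and neither did any other gene: the percent of all tested genes called was 0 in each of the 8 classes and over all nuclei. Without KO1, no member passed either, and of all genes tested 0.0112% were called in oligodendrocytes, 0.0223% in oligodendrocyte precursors and 0 in the other 6 classes and over all nuclei. DESeq2 also called no member, and it called 0.0184% of all genes in striatal projection neurons, 0.0115% over all nuclei and 0 in the other 7 classes. With no filter on low counts edgeR again called no member, while it called 2.93% of all genes in astrocytes, 2.64% in oligodendrocyte precursors, 2.23% in microglia, 0.410% in oligodendrocytes, 0.0884% in border macrophages and 0 in the 3 neuronal classes and over all nuclei. The share of all genes with an unadjusted p under 0.05, against which the members' counts below are read, was 5.97% in microglia, 8.28% in astrocytes, 4.93% in excitatory neurons, 5.72% in inhibitory neurons, 3.84% in striatal projection neurons, 5.64% in oligodendrocytes, 6.01% in oligodendrocyte precursors, 6.61% in border macrophages and 3.51% over all nuclei. Below, "lower" and "higher" compare the 2 groups' fitted levels and mark no call. With 1 library left out in turn, 61 log2 fold changes of genes chosen by their p were refitted. All 61 belonged to members except that of Ucp2, an import and carrier gene, in border macrophages. Of the 61, 53 moved by over 1.5 times or changed sign in at least 1 of 6 fits. Where such a value is printed below, its lowest and highest values stand beside it or, for those that changed sign, with the other processing alternatives. Moved values without a range below include Ndufaf5 in striatal projection neurons (0.0088 to 1.05) and Ndufaf6 in excitatory neurons (0.24 to 0.83). In inhibitory neurons they include Ndufaf2 (0.32 to 1.47) and Ndufaf5 (0.17 to 1.08), and each of these 4 was lowest without KO1.

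In SwDI/TKO microglia, mt- genes were lower and the nuclear subunits were about level. Of the 12 mt- genes that passed the filter on low counts, 11 were lower, and their median log2 fold change was -0.61; the median over all 4453 genes tested was 0.03. Of 65 nuclear subunits, 31 were higher and 34 lower, with a median of -0.01. For 5 of the 12 mt- genes, mt-Co2, mt-Nd1, mt-Nd2, mt-Nd4l and mt-Nd5, every SwDI/TKO library was below every SwDI/TWT library, as were 5.50% of all genes tested, and for no member was every SwDI/TKO library above, as were 4.85% of all genes. The 5 genes share a genome and a library, so they are not 5 separate observations. An unadjusted p under 0.05 was reached by 2 of the 12 mt- genes and by 0 of the 65 nuclear subunits.

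mt-Nd1, a core subunit of complex I, measured 1742, 1618 and 1447 normalized CPM in WT1 to WT3 and 795, 1052 and 1184 in KO1 to KO3 in microglia. The last 400 bases of its transcript shared no 50-base stretch with another annotated transcript, and the rest was not compared. The SwDI/TWT values lay close together and all above the SwDI/TKO values, among which KO1 was lowest; the means were 1603 ± 148 in SwDI/TWT against 1010 ± 197 in SwDI/TKO (SD, n = 3 each). The difference was a log2 fold change -0.67, SE 0.28, edgeR adjusted p = 0.791. mt-Nd4l, another complex I subunit, measured 158, 134 and 272 normalized CPM in WT1 to WT3 and 47.1, 126 and 108 in KO1 to KO3. WT3 was highest and KO1 lowest, and KO2 was only just below WT2 (log2 fold change -1.05, SE 0.44, -1.33 to -0.68 with 1 library left out, edgeR adjusted p = 0.791). mt-Nd3, a small membrane-arm subunit of complex I, measured 619.8, 594 and 412 normalized CPM in WT1 to WT3 and 234, 436 and 319 in KO1 to KO3, with KO2 above WT3 (log2 fold change -0.72, SE 0.33, edgeR adjusted p = 0.791).

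The nuclear members of smallest p in microglia were all higher. Ndufv2, an iron-sulfur subunit of the NADH-binding end of complex I, measured 29.2, 52 and 32.8 normalized CPM in WT1 to WT3 and 76.6, 41.9 and 96.5 in KO1 to KO3, with KO2 among the SwDI/TWT values (log2 fold change 0.96, SE 0.45, edgeR adjusted p = 0.791). Ndufa10, an accessory subunit of complex I, measured 29.2, 29.7 and 56.2 normalized CPM in WT1 to WT3 and 74.6, 33.5 and 126 in KO1 to KO3, with KO3 far above the other libraries (log2 fold change 0.98, SE 0.52, 0.51 to 1.39 with 1 library left out, edgeR adjusted p = 0.792, the lowest without KO3). Uqcrh, the hinge subunit of complex III, measured 99.4, 89.1 and 46.8 normalized CPM in WT1 to WT3 and 66.8, 155 and 156 in KO1 to KO3. Its KO2 and KO3 values were both above all SwDI/TWT values and KO1 was not, so that its log2 fold change of 0.68 (SE 0.45, 0.39 to 1.03 with 1 library left out) became 1.03 without KO1 (edgeR adjusted p = 0.813 and 0.99). Cox7b, a small subunit of complex IV, measured 111, 89.1 and 74.9 normalized CPM in WT1 to WT3 and 126, 96.4 and 141 in KO1 to KO3 (log2 fold change 0.41, SE 0.35, 0.26 to 0.56 with 1 library left out, edgeR adjusted p = 0.85).

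Microglia without KO1 kept the direction of the mt- genes. All but 1 of the 13 tested were lower, the median log2 fold change being -0.42, and 3 had an unadjusted p under 0.05, as did 4.64% of all genes. The nuclear subunits were then mostly higher, 61 of 66, with a median of 0.27, and 2 had an unadjusted p under 0.05. The median of the nuclear subunits therefore rests on KO1, in which they were lowest. When nuclei with more than 5% mt- UMIs were left out, 11 of 11 mt- genes were lower in microglia, with a median of -0.45. Malat1 held 13.4, 14.5 and 17% in WT1 to WT3 and 6.62, 11.3 and 10.7% in KO1 to KO3 of microglial UMIs, lower in every SwDI/TKO library, and its part in these differences was not tested.

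In SwDI/TKO astrocytes, both the mt- genes and the nuclear subunits were mostly lower. Of 13 mt- genes 12 were lower (median log2 fold change -0.61), as were 57 of 72 nuclear subunits (median -0.37), against a median of 0.03 over all genes tested. Among the complexes, complex V had 16 of 17 nuclear subunits lower. Every SwDI/TKO library was below every SwDI/TWT library for mt-Nd1, mt-Nd3 and the complex V subunit Atp5f1, as were 5.18% of all genes, and above for the complex I subunit Ndufs4, as were 5.18% of all genes. Unadjusted p-values under 0.05 were reached by 0 mt- genes and 1 nuclear subunit.

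mt-Nd3 measured 724, 633 and 427 normalized CPM in WT1 to WT3 and 127, 356 and 411 in KO1 to KO3 in astrocytes, with KO1 far below the others (log2 fold change -1.02, SE 0.48, -1.38 to -0.64 with 1 library left out, edgeR adjusted p = 0.591). mt-Nd1 measured 1968, 1816 and 1338 normalized CPM in WT1 to WT3 and 485, 969.9 and 1312 in KO1 to KO3, and KO3 was only just below WT3 (log2 fold change -0.89, SE 0.44, -1.27 to -0.58 with 1 library left out, edgeR adjusted p = 0.60). Ndufs4, an accessory subunit needed for complex I to be stable, measured 60.6, 56.8 and 45 normalized CPM in WT1 to WT3 and 149, 72.7 and 71.3 in KO1 to KO3, highest in KO1 (log2 fold change 0.91, SE 0.40, 0.38 to 1.09 with 1 library left out, edgeR adjusted p = 0.591). Ndufs4 is one of the members with long introns, whose KO1 values are given with the intron lengths. Atp5g2, one of 3 genes for the c-ring of complex V, measured 118, 125 and 41.2 normalized CPM in WT1 to WT3 and 43.5, 48.5 and 62.9 in KO1 to KO3, with WT3 as low as the SwDI/TKO libraries (log2 fold change -0.91, SE 0.46, edgeR adjusted p = 0.61). Ndufa11 of complex I and Atp5j2 of complex V were lower by log2 fold changes of -0.79 (SE 0.46, -1.14 to -0.47 with 1 library left out) and -0.63 (SE 0.37), with overlapping groups.

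Leaving out KO1 took much of the astrocyte difference away. The median log2 fold change became -0.29 for mt- genes, and the nuclear subunits were evenly divided, 38 higher and 38 lower. Without KO1, 4.00% of all genes in astrocytes had an unadjusted p under 0.05, and 2 mt- genes and 0 nuclear subunits did. In this class KO2 contributed 81 nuclei, the fewest of the 6 libraries.

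In neurons the direction of the mt- genes depended on single libraries. In excitatory neurons, 9 of 13 mt- genes were higher in SwDI/TKO, with a median log2 fold change of 0.09. Without KO1 all 13 were higher (median 0.41), without KO3 all 13 were lower (median -1.08), and without WT3 all 13 were lower (median -0.30). Inhibitory neurons had a median of 0.00 with 8 higher, and medians of 0.27, -0.61 and -0.27 without KO1, KO3 and WT3. Striatal projection neurons had a median of 0.18 with 12 higher, and medians of 0.57, -0.60 and -0.14. No direction is therefore reported for mt- genes in neurons.

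mt-Atp8 in excitatory neurons shows the spread: it measured 54.7, 50.3 and 10.1 normalized CPM in WT1 to WT3 and 12.6, 24.5 and 98 in KO1 to KO3, with KO3 highest, WT3 lowest and the groups fully interleaved (log2 fold change 0.21, SE 0.84, -1.07 to 0.65 with 1 library left out, edgeR adjusted p = 0.959). In the same class mt-Nd6 and mt-Nd4l had log2 fold changes of -0.25 (SE 0.55, -1.0 to 0.06 with 1 library left out) and -0.25 (SE 0.64, -1.35 to 0.12 with 1 library left out). In inhibitory neurons mt-Nd3 measured 666, 498 and 244 normalized CPM in WT1 to WT3 and 213, 379 and 643 in KO1 to KO3 (log2 fold change -0.19, SE 0.50, -0.67 to 0.15 with 1 library left out, edgeR adjusted p = 0.927), again with KO1 lowest and KO3 among the highest. mt-Nd4l and mt-Nd6 had log2 fold changes nearer 0 there, -0.16 and -0.09. In striatal projection neurons mt-Atp8, mt-Nd1 and mt-Atp6 had log2 fold changes of 0.34, 0.21 and 0.22, each with an SE of at least 0.64.

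The nuclear subunits of neurons were divided. Excitatory neurons had 25 higher and 52 lower of 77 (median -0.11), inhibitory neurons 21 higher and 57 lower of 78 (median -0.19) and striatal projection neurons 42 higher and 35 lower of 77 (median 0.02). The SwDI/TKO minus SwDI/TWT difference in their summed CPM was -124 in excitatory and -546 in inhibitory neurons. It was 893 and 934 without KO1, and -1614 and -2502 without KO3, so its direction depended on single libraries. Groups did not overlap for Ndufaf6, a complex I assembly factor, and Sdha, the catalytic subunit of complex II, both above in excitatory neurons; 5.36% of all genes lay above and 4.94% below there. In inhibitory neurons Sdha and Sdhc, the latter a membrane anchor of complex II, were above and Ndufa10 below, against 5.29% and 5.44% of all genes. In striatal projection neurons the complex I subunit Ndufs1 was above and the assembly factor Ndufaf7 below, against 5.52% and 5.32% of all genes. Over all nuclei Sdhc was above and Ndufaf7 below, against 5.11% and 5.36%. These are 1 or 2 members in a direction among 89 to 94 tested, a smaller share than that of all genes.

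Sdhc measured 16.3, 10.4 and 14.4 normalized CPM in WT1 to WT3 and 29.2, 17.5 and 19.2 in KO1 to KO3 in inhibitory neurons, highest in KO1 (log2 fold change 0.72, SE 0.35, 0.46 to 0.85 with 1 library left out, edgeR adjusted p = 0.679). Ndufaf5, a complex I assembly factor, measured 11, 10.1 and 7.02 normalized CPM in WT1 to WT3 and 30.3, 15.5 and 10.3 in KO1 to KO3 in excitatory neurons, where KO1 stood well above the others (log2 fold change 1.02, SE 0.45, 0.46 to 1.31 with 1 library left out, edgeR adjusted p = 0.697). Ndufaf2, another assembly factor of complex I, measured 16.4, 13 and 12.4 normalized CPM in WT1 to WT3 and 42.5, 15.8 and 22 in KO1 to KO3 in striatal projection neurons (log2 fold change 0.94, SE 0.41, 0.48 to 1.21 with 1 library left out, edgeR adjusted p = 0.782). In each of these 3 cases KO1 gave the highest value, and without it the log2 fold changes were 0.46, 0.46 and 0.48. Ndufv2, higher in microglia, measured 27.7, 26.6 and 18.4 normalized CPM in WT1 to WT3 and 49.4, 25.2 and 51.4 in KO1 to KO3 in excitatory neurons, where KO2 was at the level of WT1 and WT2 (log2 fold change 0.79, SE 0.35, edgeR adjusted p = 0.697). Ndufb2 and Ndufb11, membrane-arm subunits of complex I, were lower in excitatory and inhibitory neurons with log2 fold changes of -0.60 (SE 0.41, -1.0 to -0.31 with 1 library left out) and -0.60 (SE 0.39, -1.16 to -0.32 with 1 library left out), and Uqcrc2, a core subunit of complex III, had 0.54 (SE 0.41, 0.32 to 0.87 with 1 library left out) in striatal projection neurons.

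In the oligodendrocyte lineage all tested mt- genes were lower in SwDI/TKO with 6 libraries, and leaving out KO1 took much of the difference away. The mt- share of oligodendrocytes was nonetheless highest in KO3 (4.86%) and lowest in KO1 (2.0%). Oligodendrocytes had 13 of 13 lower (median log2 fold change -0.25) and their precursors 12 of 12 (median -0.42). Without KO1 the medians were -0.06 and -0.18, and 10 of 13 and 11 of 13 were lower. Nuclear subunits were 29 higher and 49 lower of 78 (median -0.06) in oligodendrocytes and 21 higher and 41 lower of 62 (median -0.15) in precursors. In precursors, mt-Nd1, mt-Nd5 and Atp5j2 were below in every SwDI/TKO library and no member was above, against 4.58% and 4.28% of all genes. In oligodendrocytes, Ndufaf2, Ndufs1 and Ndufs4, all of complex I, were above and no member below, against 5.04% and 4.67%.

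Ndufaf2 measured 26.5, 23.2 and 8.78 normalized CPM in WT1 to WT3 and 74.8, 29.8 and 29.4 in KO1 to KO3 in oligodendrocytes, highest in KO1, with the other SwDI/TKO libraries just above WT1 (log2 fold change 1.22, SE 0.50, 0.56 to 1.48 with 1 library left out, edgeR adjusted p = 0.779). Without KO1 its log2 fold change was 0.56. Sdhc, the complex II assembly factor Sdhaf3, and Ndufs4 were higher there by log2 fold changes of 0.67 (SE 0.36), 0.99 (SE 0.56, 0.53 to 1.64 with 1 library left out) and 0.47 (SE 0.29, 0.26 to 0.62 with 1 library left out), each with KO1 as its highest library. In precursors Atp5j2 measured 136, 139 and 124 normalized CPM in WT1 to WT3 and 48.9, 57.4 and 110.1 in KO1 to KO3, with KO1 and KO2 near one another and KO3 just below SwDI/TWT (log2 fold change -0.88, SE 0.39, -1.35 to -0.58 with 1 library left out, edgeR adjusted p = 0.74). mt-Nd5 of complex I measured 262, 283 and 337 normalized CPM in WT1 to WT3 and 130.5, 229.6 and 240.4 in KO1 to KO3 in precursors (log2 fold change -0.56, SE 0.36, -0.74 to -0.32 with 1 library left out, edgeR adjusted p = 0.752). Ndufa7, Ndufa2 and Ndufc1, accessory subunits of complex I, were lower in precursors with overlapping groups, by log2 fold changes of -1.05 (SE 0.48), -0.81 (SE 0.49, -1.16 to -0.24 with 1 library left out) and -0.71 (SE 0.50, -1.48 to -0.23 with 1 library left out). The value nearest 0 came without WT1 for Ndufa2 and without KO1 for Ndufc1.

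Border macrophages, with 21 to 75 nuclei per library, left 10 mt- genes and 1 nuclear member to test. All 10 mt- genes were lower (median log2 fold change -0.26), and without KO1 8 of 10 were higher (median 0.20). mt-Co3 measured 12114, 10385 and 6778 normalized CPM in WT1 to WT3 and 2859, 10473 and 8270 in KO1 to KO3, with KO1 low and KO2 and KO3 among the SwDI/TWT values (log2 fold change -0.44, SE 0.53, -0.82 to -0.05 with 1 library left out, edgeR adjusted p = 0.913). Cox4i1, the common form of a regulatory subunit of complex IV, measured 414, 243 and 270.2 normalized CPM in WT1 to WT3 and 415, 241 and 536 in KO1 to KO3 (log2 fold change 0.44, SE 0.42, 0.13 to 0.58 with 1 library left out, edgeR adjusted p = 0.875). No member had groups that did not overlap, against 6.31% of genes below and 7.21% above.

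**Figure D3:**
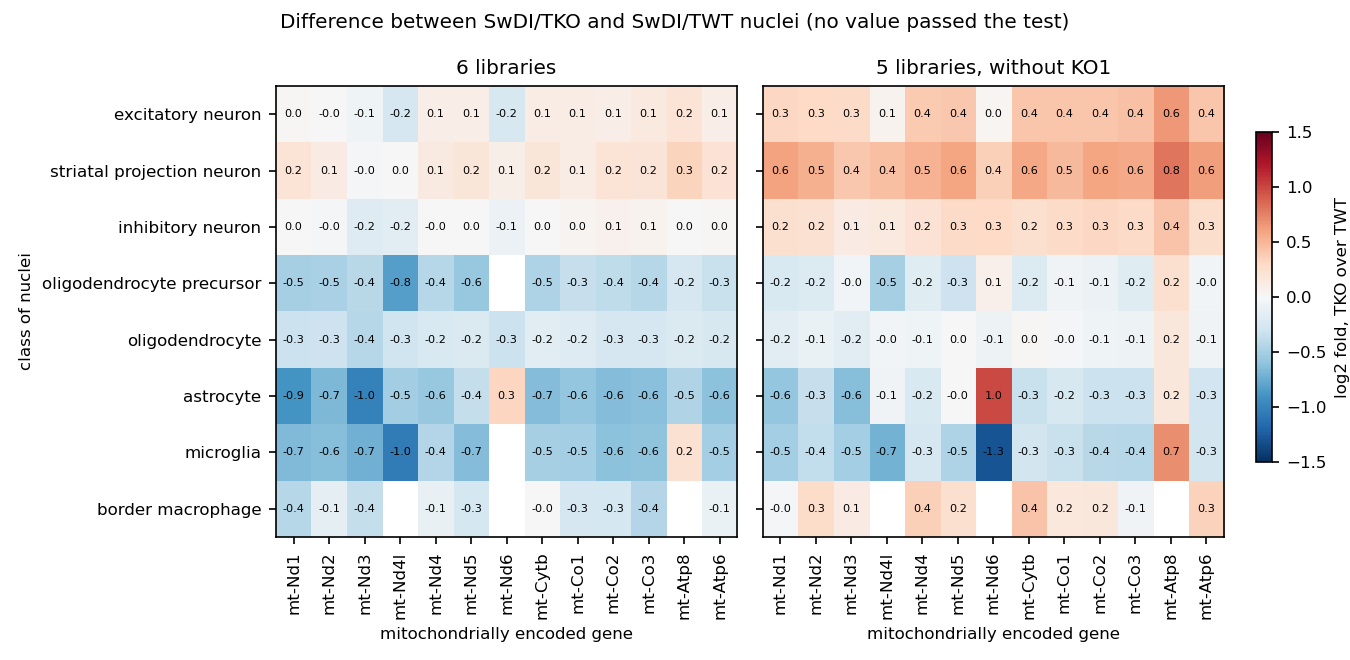
Log2 fold change (SwDI/TKO over SwDI/TWT; colour and printed value, blue below 0 and red above) of each mt- gene (horizontal axis) in each tested class (vertical axis), with 6 libraries (left) and without KO1 (right); white cells were not tested. With 6 libraries 11 of 12 genes lie below 0 in microglia and 12 of 13 in astrocytes. In excitatory neurons all 13 lie above 0 without KO1, but without KO3 or without WT3 (not drawn) all 13 were below 0.

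Whether the genotype difference itself was unlike in microglia and excitatory neurons was tested by an interaction term in a fit over both classes with the library as a block. No member was called; 0.0154% of all genes were called and 4.50% had an unadjusted p under 0.05, and 0.00786% were called without KO1. The microglial difference was the lower one for 12 of 13 mt- genes, with a median interaction of -0.46 on the log2 scale. That median was 0.12 without WT3, 0.07 without KO3 and -1.08 without KO2, the last with a smallest edgeR adjusted p of 0.0864. Of the 78 nuclear subunits tested, 48 had the higher difference in microglia. The smallest p among members belonged to Ndufa10, with an interaction of 1.22 (SE 0.44, edgeR adjusted p = 0.943). An unlike response of the 2 classes was therefore not shown, for mt- genes or for nuclear members, and the sign of the mt- median rested on WT3 and on KO3.

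By complex, the nuclear subunits showed no call and small medians over all nuclei. Complex I had 32 of 38 subunits lower (median log2 fold change -0.11), complex III 6 of 8 (-0.10), complex IV 11 of 15 (-0.08) and complex V 13 of 17 (-0.17), against a median of 0.05 over all 16934 genes. The direction depended on single libraries: the SwDI/TKO minus SwDI/TWT difference in summed nuclear subunit CPM was -249, but 1100 without KO1 and -1982 without KO3. Values over all nuclei also mix classes in unlike proportions: excitatory neurons were 2149 of 7846 nuclei in KO1 and 483 of 6338 in KO3. The part of class make-up in the values over all nuclei was not tested. Subunits were assigned to complexes by symbol, so Ndufa4, now known as a subunit of complex IV, and its paralogue Ndufa4l2 are counted under complex I. Complex II differed in sign over all nuclei, where Sdha, Sdhb, Sdhc and Sdhd were all higher (median 0.18). All 4 were also higher in inhibitory neurons (0.26) and in striatal projection neurons (0.25), 3 of 4 in excitatory neurons (0.27), 2 of the 2 tested in microglia (0.26) and the 1 tested in precursors (0.19). In oligodendrocytes 2 of 4 were higher (-0.05), and in astrocytes 0 of the 2 tested (-0.13). Without KO1, 3 of 4 were higher over all nuclei (0.19), and the median in excitatory neurons was -0.01 and in astrocytes -0.47. These classes share libraries, so the repeats are not independent. In microglia the medians were -0.06 for complex I, -0.01 for III, -0.03 for IV and 0.02 for V. The assembly factors had a median of 0.13 over all nuclei, with 7 of 12 higher. Ndufaf2, Ndufaf5 and Ndufaf6 led, at 1.03, 0.74 and 0.64, and at 0.16, 0.17 and 0.15 without KO1. With 1 library left out they ranged from 0.16 to 1.39, 0.17 to 0.99 and 0.15 to 0.85.

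Other genes of the pathway behaved alike: none of 4 lists had a called gene in any class. Over all nuclei, respiratory chain partners outside the prefixes, among them cytochrome c and the assembly factors of complexes III and IV, were 12 higher and 18 lower of 30 tested (median log2 fold change -0.11). Genes for expression of the mitochondrial genome and its biogenesis were 9 higher and 7 lower of 16 tested (median log2 fold change 0.16), genes of the citric acid cycle and pyruvate entry 7 higher and 10 lower of 17 tested (median log2 fold change -0.09), and import and carrier genes 7 higher and 5 lower of 12 tested (median log2 fold change 0.03). In microglia the same lists were 4 higher and 3 lower of 7 tested (median log2 fold change 0.09), 3 higher and 3 lower of 6 tested (median log2 fold change -0.17), 6 higher and 3 lower of 9 tested (median log2 fold change 0.16) and 4 higher and 5 lower of 9 tested (median log2 fold change -0.03). Among listed genes, Suclg2, a subunit of succinyl-CoA ligase, measured 46.8, 29.7 and 23.4 normalized CPM in WT1 to WT3 and 147, 92.2 and 63.1 in KO1 to KO3 in microglia (log2 fold change 1.63, SE 0.47, edgeR adjusted p = 0.791). Cox11, a copper-delivery factor of complex IV, measured 5.04, 7.13 and 3.89 normalized CPM in WT1 to WT3 and 43.4, 9.79 and 14.9 in KO1 to KO3 in striatal projection neurons (log2 fold change 2.04, SE 0.61, edgeR adjusted p = 0.782). In both cases KO1 was the highest library, and without it the log2 fold changes were 1.23 and 1.19.

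The position of KO1 among the members followed the length of their introns. Over genes with at least 100 UMIs in all nuclei, the log2 ratio of the KO1 level to the mean of the other 5 libraries (with 1 CPM added to each) had a median of -0.40 over 16999 genes, -1.5 over the 13 mt- genes and -1.33 over 92 nuclear members. Split by total intron length (GENCODE M21), the 30 nuclear members with at most 3193 intronic bases had a median of -1.6, the 30 with 3283 to 8028 had -1.32, and the 32 with 8172 to 152931 had -0.83. The members higher in KO1 than in the other libraries numbered 7 and were all in the third with the longest introns: Ndufaf2 (1.33), Cox7b2 (0.93), Ndufaf5 (0.84), Ndufs4 (0.82), Sdhaf3 (0.71), Ndufaf6 (0.68) and Sdhc (0.29). Several of these are the members named above with KO1 as their highest library. KO1 is 1 library of 1 genotype, so its counting software and its mouse cannot be told apart.

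**Figure D4:**
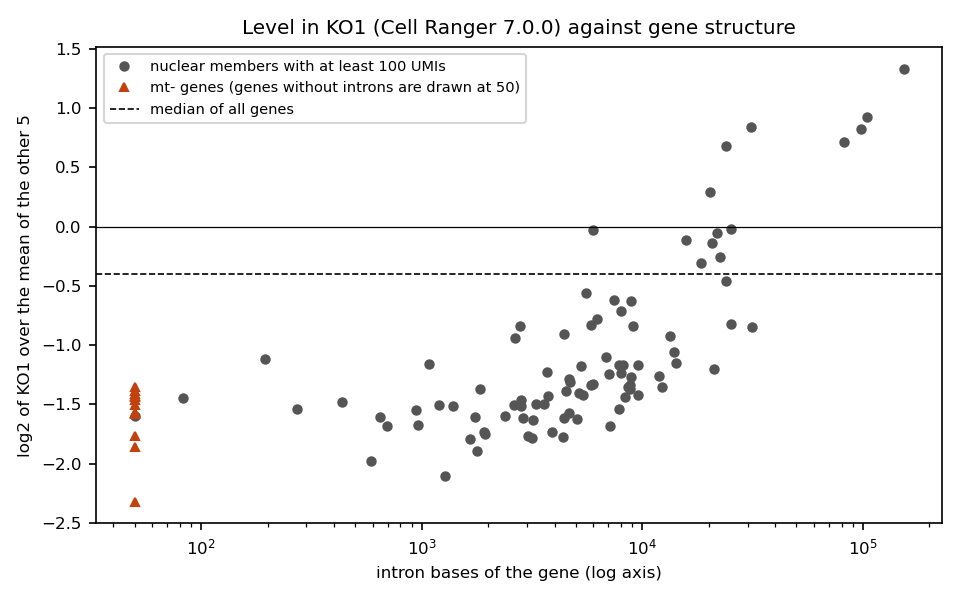
Log2 ratio of the KO1 level to the mean of the other 5 libraries (vertical axis) against intron bases of the gene (horizontal axis, log scale) for nuclear members with at least 100 UMIs (grey, 1 point per gene) and mt- genes (triangles), genes without introns being drawn at 50; the dashed line is the median of all genes. The 7 members above 0 all have at least 8172 intronic bases.

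Levels of the nuclear members differed between classes whatever the genotype. Of 92 nuclear members with at least 100 UMIs, the mean CPM over the 6 libraries was highest in microglia for 27, in border macrophages for 23, in inhibitory neurons for 22, in astrocytes for 8, in oligodendrocytes for 7, in their precursors for 4, in striatal projection neurons for 1 and in excitatory neurons for 0. It was lowest in excitatory neurons for 64 members and in border macrophages for 13. These are shares of a nucleus's own UMIs, and median UMIs per nucleus differed widely, at 4336 in excitatory neurons and 757 in microglia.

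The alternative isoforms differed between classes in the share of nuclei with at least 1 UMI; intervals cover counting error only and pool the 6 mice. Ndufa4l2, the paralogue of the complex IV subunit Ndufa4, was found in mural cells in 25 of 74 nuclei (33.8%, 95% Wilson interval 24 to 45.1%) and in endothelial cells in 6 of 59 nuclei (10.2%, 95% Wilson interval 4.74 to 20.5%). In excitatory neurons, which were deeper, it was found in 6 of 5925 nuclei (0.101%, 95% Wilson interval 0.0464 to 0.221%), and in 0 of 1634 microglia, which allows a share of up to 0.184%. Its pooled level in mural cells was 666 CPM from 43 UMIs, seen in 6 of 6 libraries. Cox4i2, the alternative form of Cox4i1, was found in 7 of 74 nuclei (9.46%, 95% Wilson interval 4.66 to 18.3%) in mural cells and 3 of 59 in endothelial cells, and in 0 of 5855 oligodendrocytes, which allows a share of up to 0.0512%. Both isoforms were thus found most often in the 2 vascular classes, which rest on few nuclei and were not tested between genotypes.

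Cox6a2, the muscle form of Cox6a1, was found in inhibitory neurons in 197 of 2322 nuclei (8.48%, 95% Wilson interval 7.42 to 9.69%). Its level there was 38.6, 42.9 and 24.8 CPM in WT1 to WT3 and 4.97, 30.7 and 64.9 in KO1 to KO3, from 263 UMIs, with KO1 far below and KO3 above the other libraries. Excitatory neurons, with a higher median of 4336 UMIs per nucleus against 3382, had it in 18 of 5925 nuclei (0.304%, 95% Wilson interval 0.192 to 0.48%). Among inhibitory neurons, the cluster led by Sst (cluster 10) had 34.8 CPM with 11.4% of nuclei positive, and the cluster led by Vip (cluster 15) had 8.47 CPM with 3.14%. In microglia 17 of 1634 nuclei had a UMI, a share of 1.04% that lies above those of oligodendrocytes (0.256%) and astrocytes (0.149%).

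Cox6b2, described as the testis form of Cox6b1, was spread over more classes. It was found in 5 of 74 nuclei (6.76%, 95% Wilson interval 2.92 to 14.9%) in mural cells, 17 of 254 nuclei (6.69%, 95% Wilson interval 4.22 to 10.5%) in fibroblasts and 45 of 1344 nuclei (3.35%, 95% Wilson interval 2.51 to 4.45%) in astrocytes. Lower shares were those of precursors (1.78%), oligodendrocytes (1.28%), border macrophages (1.14%), inhibitory neurons (0.646%), microglia (0.428%) and striatal projection neurons (0.108%). None of 59 endothelial nuclei had it, which allows up to 5.08%. In excitatory neurons, the deepest class, it was found in 5 of 5925 nuclei (0.0844%, 95% Wilson interval 0.0361 to 0.197%). Cox7b2, the alternative of Cox7b, was found most often in neurons: in excitatory neurons in 100 of 5925 nuclei (1.69%, 95% Wilson interval 1.39 to 2.05%), in inhibitory neurons in 28 of 2322 (1.21%) and in striatal projection neurons in 50 of 5531 (0.904%). Precursors had 0.623% and astrocytes 0.521%, and it was found in 0 of 1634 microglia, which allows up to 0.184%. Of the 100 positive excitatory nuclei, 78 were in KO1, the library with the deepest nuclei, and the excitatory share was 0.39, 0.435 and 0.308% in WT1 to WT3. Excitatory nuclei were also deeper, with a median of 4336 UMIs against 1454 in astrocytes and 1305 in precursors. The part of depth in this order of classes was not tested. The standard forms were found in every class: Cox4i1, for example, had 249 CPM in astrocytes, 107 in excitatory neurons and 302 in microglia. Cox7a1 and Cox8b, forms known from muscle and heart, had 62 and 14 UMIs in all nuclei, and Cox8c had 1.

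The c-ring of complex V is made from 3 genes that encode the same mature protein. In excitatory neurons they measured Atp5g1 89.3 ± 48.8, Atp5g2 45.9 ± 20.3 and Atp5g3 55.6 ± 21.1 CPM (SD, n = 6 libraries), and in microglia Atp5g1 94 ± 52.1, Atp5g2 87.5 ± 39.9 and Atp5g3 77 ± 29 CPM. Each of the 3 was found in every tested class, and the spread over libraries was wider than the difference between these classes for Atp5g1.

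**Figure D5:**
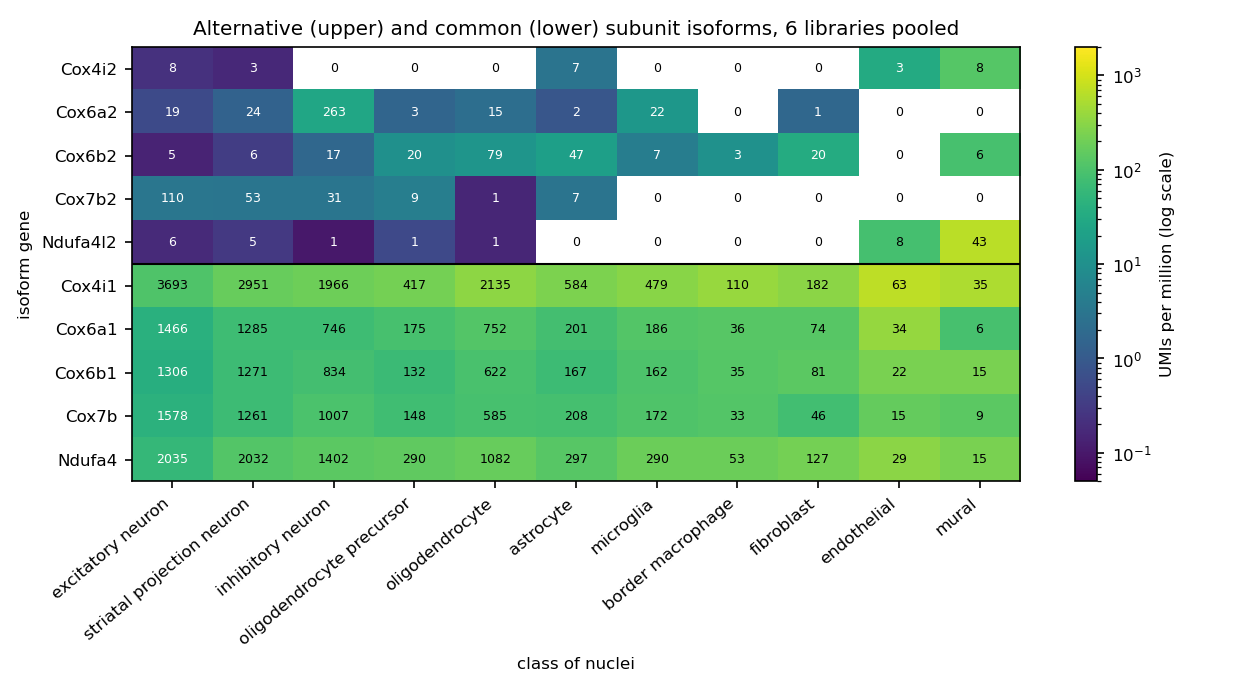
UMIs per 1000000 UMIs (CPM; colour, log scale) of 5 alternative (upper rows) and 5 common (lower rows) isoform genes in each named class (horizontal axis), 6 libraries pooled, with the number of UMIs printed in each cell and white for 0. Ndufa4l2 and Cox4i2 are highest in mural cells and Cox6a2 in inhibitory neurons, while the common forms are found in every class.

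Promoters of the nuclear members, which the choice of members did not use, were searched for 3 runs of letters, each found in a minority of them. Promoters of 300 bases (250 before to 50 after the annotated start, RefSeq, GRCm38.p6) matched 79 of the 97 nuclear members and 27025 genes in all. The letters GCATGCG, the core of the site of the respiratory factor NRF1, which overlaps its own reverse complement, were found on either strand in 13 (16.5%) of the members' promoters and in 4.01% of all. CCGGAAG, the core bound by ETS factors such as GABP, was found in 22 (27.8%) against 9.93%, and AAGATGG, from a site of YY1, in 11 (13.9%) against 7.28%. Cox6a1 and Cox6b1, isoforms found in every class, carried such letters and Cox6b2 carried none of the 3, as these stretches of 60 bases show (first match in capitals; those shown are on the other strand, read as CGCATGC and CTTCCGG). The median GC content was 58.5% in the members' promoters and 52.8% in all, and its part in these shares was not tested. Cox7b, Cox7b2 and Ndufa4 promoters also carried none of the 3. Entries for Cox4i1, Cox4i2, Cox6a2 and Ndufa4l2 were not used here.
Cox6a1 (chr5:115349085-115349144, minus strand, bases 186 to 127 before the start): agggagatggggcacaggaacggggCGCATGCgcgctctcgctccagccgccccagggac
Cox6a1 (chr5:115348959-115349018, minus strand, bases 60 to 1 before the start): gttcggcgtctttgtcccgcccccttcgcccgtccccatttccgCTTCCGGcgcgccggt
Cox6b1 (chr7:30626115-30626174, minus strand, bases 60 to 1 before the start): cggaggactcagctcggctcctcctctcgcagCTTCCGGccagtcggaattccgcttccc
Cox6b2 (chr7:4753095-4753154, minus strand, bases 60 to 1 before the start): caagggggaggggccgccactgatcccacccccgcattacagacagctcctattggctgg
A match is a run of letters and not a measured binding site, and the absence of these letters from a window says nothing of the factor. Of the factors themselves, Nrf1 measured 25.6, 22 and 25.4 normalized CPM in WT1 to WT3 and 118, 25 and 19.7 in KO1 to KO3 over all nuclei (log2 fold change 1.15, SE 0.67, edgeR adjusted p = 0.707), with KO1 apart from the other libraries.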

How the data were processed

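Nuclei from frontal lobe of 3 SwDI/TWT and 3 SwDI/TKO mice, 1 library per mouse, were profiled with droplet-based 3′ chemistry, per the labels' protocols. The authors deposited UMI counts per gene and barcode, not normalized. Per the file headers they came from Cell Ranger 6.1.2, or 7.0.0 in KO1, and the submitters' processing notes name mm10 and Seurat; the sources used here do not state intron counting, annotation release or strand use. The submitters state 5700 to 8100 nuclei per sample and about 40000 reads per nucleus; the files hold 5220 to 8095 barcodes and 11493087 to 51317961 UMIs per library.

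Barcodes with at least 200 genes were kept and 1118 doublets called by Scrublet (scanpy 1.11.5, expected rate 6%) removed. Clusters came from 2000 variable genes, 30 components, 15 neighbours and leidenalg 0.10.2 at resolution 1, seed 1. A cluster took a class name when at least 3 of the class's markers exceeded a log2 fold of 0.8 (20 CPM added). An own marker also had to be among the top 15 genes. A cluster stayed unnamed when another class had as many or more markers among its top 10 genes, as in cluster 17 (1 each). Shallow clusters with no own marker among those 10 also stayed unnamed. Counts were summed per library and class (at least 20 nuclei in each library) and tested with edgeR 4.0.16 (TMM, filterByExpr, quasi-likelihood) in R 4.3.3 with limma 3.58.1. The test was checked on simulated data. DESeq2 1.42.0, other filters, scalings and gates, and leaving out each library were alternatives. Normalized CPM use TMM library sizes; shares use raw sums.

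The members and gene lists were chosen with earlier results of these data known. All 13 mt- genes were counted in each class, and values are given for up to 3 mt- genes and 4 nuclear members of smallest p per class, for isoform groups picked by name and for up to 2 genes of smallest p per other list. mt-Co1 to mt-Nd6 overlaps, copies and introns came from GENCODE M21, promoters from RefSeq. P-values measure spread between mice.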

Additional observations from a re-analysis of the deposited data

How the results depend on the processing

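No paired analysis was possible because the labels carry no replicate numbers that tie a SwDI/TWT to a SwDI/TKO mouse. The count of members called was 0 in each class and over all nuclei under every alternative run, and so was that of the interaction. Among all genes, up to 544 were called, in astrocytes with no filter on low counts, 543 of them higher in SwDI/TKO. RLE scaling, DESeq2, no filter on low counts, at least 500 genes and doublets kept reversed none of the 61 log2 fold changes chosen by p, where these were tested. Neither did library sizes without mt- genes and Malat1. Other genes named in the text were not followed through these settings. Group differences in shares without mt- genes and Malat1 moved by less than the mean of the groups' SDs. The marker gate was not run over all nuclei.

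Nuclei with at most 5% mt- UMIs gave group differences in mt- UMIs per nuclear subunit UMI of -0.30 in astrocytes and -0.606 in microglia, nearer 0 than with all nuclei (-1.19 and -1.26). Under it the log2 fold changes of mt-Co3 in border macrophages (0.083), mt-Nd1 in border macrophages (0.30) and mt-Nd6 in inhibitory neurons (0.093) changed sign. With the marker gate mt-Nd4l in inhibitory neurons (0.058) did. Both 5-library settings without KO1 were chosen after seeing the data. At most 5% mt- UMIs without KO1 reversed mt-Co3 in border macrophages (0.29), mt-Nd1 in border macrophages (0.57), mt-Nd3 in inhibitory neurons (0.017), mt-Nd6 in inhibitory neurons (0.45), Ndufaf5 in striatal projection neurons (-0.025), mt-Nd6 over all nuclei (0.064), mt-Nd3 over all nuclei (0.18) and mt-Nd4l over all nuclei (0.20). Library sizes without mt- genes and Malat1, also without KO1, reversed mt-Nd1 in border macrophages (0.021), mt-Nd3 in border macrophages (0.16), mt-Nd4l in excitatory neurons (0.017), mt-Nd3 in inhibitory neurons (0.14), mt-Nd4l in inhibitory neurons (0.16), mt-Nd6 in inhibitory neurons (0.31), Ndufaf5 in striatal projection neurons (-0.0033), mt-Nd6 over all nuclei (0.048), mt-Nd3 over all nuclei (0.18) and mt-Nd4l over all nuclei (0.22). Leaving out 1 library at a time changed the sign of mt-Nd3 in border macrophages (-1.07 to 0.12), Ucp2 in border macrophages (-0.30 to 0.016), mt-Nd6 in excitatory neurons (-1.0 to 0.058), mt-Nd4l in excitatory neurons (-1.35 to 0.12), mt-Atp8 in excitatory neurons (-1.07 to 0.65), mt-Nd3 in inhibitory neurons (-0.67 to 0.15), mt-Nd4l in inhibitory neurons (-0.87 to 0.14), mt-Nd6 in inhibitory neurons (-0.72 to 0.30), mt-Atp8 in striatal projection neurons (-0.16 to 0.80), mt-Nd1 in striatal projection neurons (-0.55 to 0.64), mt-Atp6 in striatal projection neurons (-0.62 to 0.70), mt-Nd6 over all nuclei (-0.65 to 0.053), mt-Nd3 over all nuclei (-0.79 to 0.19) and mt-Nd4l over all nuclei (-0.77 to 0.22) in at least 1 of 6 fits, given as the lowest and highest log2 fold change. The cause of these changes was not tested.

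Depth limits the scarce members: border macrophages allowed a test of 11 members, and the isoforms found in vascular nuclei rest on 74 mural and 59 endothelial nuclei.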
